A study of Macaca fascicularis and Mus musculus with 42 samples.

Results

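The genes described here are 41 that copy the genome in S phase, chosen by symbol as the subunits and partners of the replication machinery: the MCM2 to MCM7 helicase, the licensing factors that load it, the factors that activate it, the PCNA clamp and its loader, the polymerases and primase, the RPA complex, the lagging strand enzymes, the enzymes of nucleotide supply, and the E cyclins. Of the 41, 40 were among the 26018 entries of the monkey table and 41 among the 34896 of the mouse table. POLD1, the catalytic subunit of polymerase delta, was not analysed here in monkey.

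Replication is licensed in G1, when ORC, CDC6 and CDT1 load rings of the MCM helicase onto origins. On entry into S phase, driven in part by cyclin E with its kinase, CDC45 and the GINS complex turn the loaded ring into a working helicase, primase and the polymerases follow, PCNA holds the polymerases on the template, and RPA covers the single strands. Many of these genes are transcribed as cells approach S phase, so in bulk RNA their levels follow how many cells of a sample are cycling as well as how much each cell makes, and here fewer cycling cells and less RNA per cell cannot be told apart.

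The study induced primordial germ cell-like cells, cultured counterparts of the founders of the germ line, from embryonic stem cells (ESC) of the cynomolgus monkey (Macaca fascicularis), and sequenced RNA from its 3′ end in bulk, from 1 ng a library. The reporter lines 656BTAG42 and 656BTAG63 carried Blimp1-tdTomato and TFAP2C-EGFP, reporters for PRDM1 (also called Blimp1) and TFAP2C, a pair of transcription factors of the early germ line. The ESC were kept in the medium labelled AITS+IF20, and cells were induced as floating aggregates with BMP4, SCF, EGF, LIF and Y27632 in a medium with serum replacement (GK15_BSEL, here GK15) or with B27 (aRB27_BSEL, here aRB27). Levels are RPM, the reads of a gene scaled to the depth of its library, and since only 3′ ends were read they are compared between libraries, not between genes.

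The groups used here were reporter ESC (4 libraries, 1 of them of line 656BTAG63 and the others of 656BTAG42) and, from 656BTAG42, induced cells sorted as positive for both reporters (double-positive), for the PRDM1 reporter alone (PRDM1-only), or for the TFAP2C reporter at mid level (TFAP2C-mid), as the gate names BTAG, BT and AG mid are read here. The double-positive cells gave 1 library on day 2, 1 on day 4 and 2 each on days 6, 8 and 10 in GK15, and 2, 2 and 3 libraries on days 2, 4 and 6 in aRB27. PRDM1-only cells gave 1 library on day 2 and 2 on day 4, both in aRB27, and TFAP2C-mid cells 1 on day 2 in aRB27 and 1 on day 4 in GK15. Another 5 ESC libraries came from lines with no transgene (CMK6 with 2 libraries, 656, 681F and 22), and mouse cells of line R8 with Blimp1-membraneVenus and Dppa3-ECFP, induced in GK15, gave 2 libraries on day 4 and 2 on day 6. The labels do not say whether libraries of a group came from separate cultures, so the p-values measure only the spread between these libraries.

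Of the 33 reporter-line libraries, 9 were left out before the tests. In 6 of them the PRDM1 level went against the labelled gate, as in the library labelled reporter ESC 5, with 253 RPM, and the library labelled GK15 double-positive day 6 library 2, with 0.5 RPM, and for the other 3 the group depends on how the column names are read. Each result is given below over the remaining 24 libraries, with the count over all 33 as labelled. In the 24, PRDM1 was at 0 to 2.59 RPM in ESC and 118 to 318 RPM in double-positive cells, a gap that the choice of libraries fixes in part. The 6 germ cell-like markers together were at 4.4 to 21.1 RPM in ESC and 1562 to 2258 RPM in double-positive cells, while SOX2, a stem cell factor, went from 311 to 398 RPM in ESC to 0.6 to 39.5 RPM. Depth was 1.08 to 6.80 M reads a library (median 2.10 M), and 1 read stood for 0.147 to 0.929 RPM. Calls required a log2 difference of at least 1, on the log2(RPM + 1) scale, together with an adjusted p under 0.05 (limma, Benjamini-Hochberg).

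All 40 monkey members passed the filter on low values, and together they made up 3701 to 5620 RPM of a reporter ESC library. In double-positive cells in GK15 the sum was 3889 RPM on day 2, 4152 RPM on day 4, 4436 and 4527 RPM on day 6, 3229 and 4058 RPM on day 8, and 2676 and 2911 RPM on day 10. The day 10 libraries thus lay below every ESC library, and those of days 2 to 6 inside the ESC range, whose lower end is ESC library 3. Over the means of the 6 time points from ESC to day 10 in GK15, 20 of the 40 members were highest in ESC and 32 were lowest on day 10. Day 6 held the highest mean of 9 members, MCM2, MCM7 and RPA2 among them. These counts were not made over all genes, so they do not show a course particular to the members. Days 2 and 4 in GK15 are 1 library each.

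By days 8 and 10 in GK15, 12 of the 40 members (30%) fell against ESC and none rose, while over all 10701 genes tested 31.1% were called, 15.4% rising and 15.7% falling. By the adjusted p alone 24 members were lower and 0 higher, against 26.6% and 22.1% of all genes. In 12 members, not all of them called, every late library lay below every ESC library, as it did in 21.8% of all genes. The members' median log2 difference was −0.73, and that of all genes −0.09. The calls were 4 of 6 activation factors, 3 of 7 polymerase and primase genes, and 1 gene each among the helicase subunits, licensing factors, clamp genes, nucleotide enzymes and E cyclins. None of the RPA or lagging strand genes was called. Summed by role, the activation factors (133.5 to 232.1 RPM late, 330.6 to 457.9 RPM in ESC) and the E cyclins (15.1 to 35.3 RPM and 57.8 to 110.6 RPM) lay apart from ESC, and the sums of the other roles overlapped. As labelled, 10 members fell and 0 rose in this comparison. Of the 10937 genes tested in that fit 24.7% were called, 1261 rising and 1440 falling.

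CCNE1 (gene 102137714), the cyclin that drives entry into S phase, showed the largest difference. It stood at 98.3, 57.8, 60.2 and 67.3 RPM in the 4 ESC libraries, at 24.1 and 20.4 RPM on day 8 and at 13.8 and 12.8 RPM on day 10. Every late library lay below every ESC library, and both day 10 libraries below both of day 8. The log2 difference was −1.95 ± 0.21 (SE, adjusted p = 4.51e-07).

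The factors that switch on the helicase formed the role with the most calls, 4 of 6. GINS2 (gene 102143248), a subunit of the GINS complex of the active helicase, was at 96.7 to 152 RPM in ESC and 35.4 to 62.2 RPM late, a log2 difference of −1.59 ± 0.21 (SE, adjusted p = 4.42e-06). MCM10, which helps to activate the helicase, fell by 1.39 ± 0.22 on the log2 scale (SE, adjusted p = 4.37e-05), from 50.1 to 79.4 RPM in ESC to 15.9 to 33.4 RPM. The GINS subunits GINS3 and GINS4 fell by 1.29 and 1.10. GINS4 rests on low levels, 15.8 to 35.6 RPM in ESC and 9.05 to 13.8 RPM late, and without ESC library 4 or day 10 library 2 its difference was −0.96 or −0.99, short of the threshold of 1. CDC45 and GINS1 passed the adjusted p alone, with differences of −0.70 and −0.81.

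Among the helicase subunits, MCM4 (gene 102120551) fell by 1.43 ± 0.18 (SE, adjusted p = 2.78e-06). Its ESC libraries held 166 to 268 RPM, the day 8 libraries 101.2 and 81.2 RPM, and the day 10 libraries 76.1 and 70.9 RPM, with no overlap. MCM3, MCM5 and MCM6 passed the adjusted p alone, with differences of −0.84, −0.61 and −0.59, and MCM7, at −0.27, did not. MCM2 was the exception in direction, 234 to 383 RPM late against 193 to 273 RPM in ESC, a difference of 0.43 (adjusted p = 0.0624). Of the licensing factors, ORC1, the largest subunit of the origin recognition complex, fell by 1.42 ± 0.30 (SE, adjusted p = 0.00064), from 34.3 to 98.4 RPM to 11.8 to 36.2 RPM, and a late and an ESC library overlapped. ORC6 and CDC6 passed the adjusted p alone, at −0.73 and −0.92.

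On the synthesis side, PRIM1, the catalytic subunit of primase, fell from 26.4 to 36.3 RPM in ESC to 7.54 to 12.5 RPM late, and differed by −1.501 ± 0.305 (SE, adjusted p = 0.000482). POLE2, a small subunit of polymerase epsilon, fell by 1.44, from 39.6 to 52.8 RPM to 9.8 to 26.0 RPM, and POLA1, the catalytic subunit of polymerase alpha, by 1.23, from 48.8 to 73.8 RPM to 22.8 to 31.7 RPM. The late libraries of these 3 genes all lay below the ESC libraries. PCNA, the sliding clamp, fell by 1.16 ± 0.28 (SE, adjusted p = 0.00189). Its ESC libraries spread widely, at 801, 1288, 415 and 678 RPM, against 252 to 453 RPM late, and the call was lost without ESC library 2, the one of line 656BTAG63 (−0.89), with the title code described below as a covariate (−0.79) and as labelled (−0.87, adjusted p = 0.0594). In the clamp loader, RFC2 and RFC4 passed the adjusted p alone at −0.90 and −0.84.

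RRM2 (gene 101865103), the subunit of ribonucleotide reductase whose level limits deoxynucleotide supply, fell by 1.48 ± 0.25 (SE, adjusted p = 8.03e-05). It was at 584, 479, 277 and 595 RPM in ESC, 308 and 162 RPM on day 8 and 159 and 93.5 RPM on day 10, so that only day 8 library 1 reached the lowest ESC library. Its partner RRM1 stood at −0.83 and passed the adjusted p alone. None of the 3 RPA genes, the single-strand binding complex, was called or passed the adjusted p alone, with RPA1 at −0.43 and RPA2 at 0.33. The lagging strand enzymes FEN1, the flap nuclease, and LIG1, the ligase, were likewise not called, at −0.36 and −0.23. Sample titles carry the codes MS134 and MS162, which the labels do not explain. All libraries of days 8 and 10 are MS162, and against the 2 ESC libraries of that code all 12 called members were lower, by −0.69 (PCNA) to −1.83 (CCNE1), 10 of them by at least 1.

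**Figure D1:**
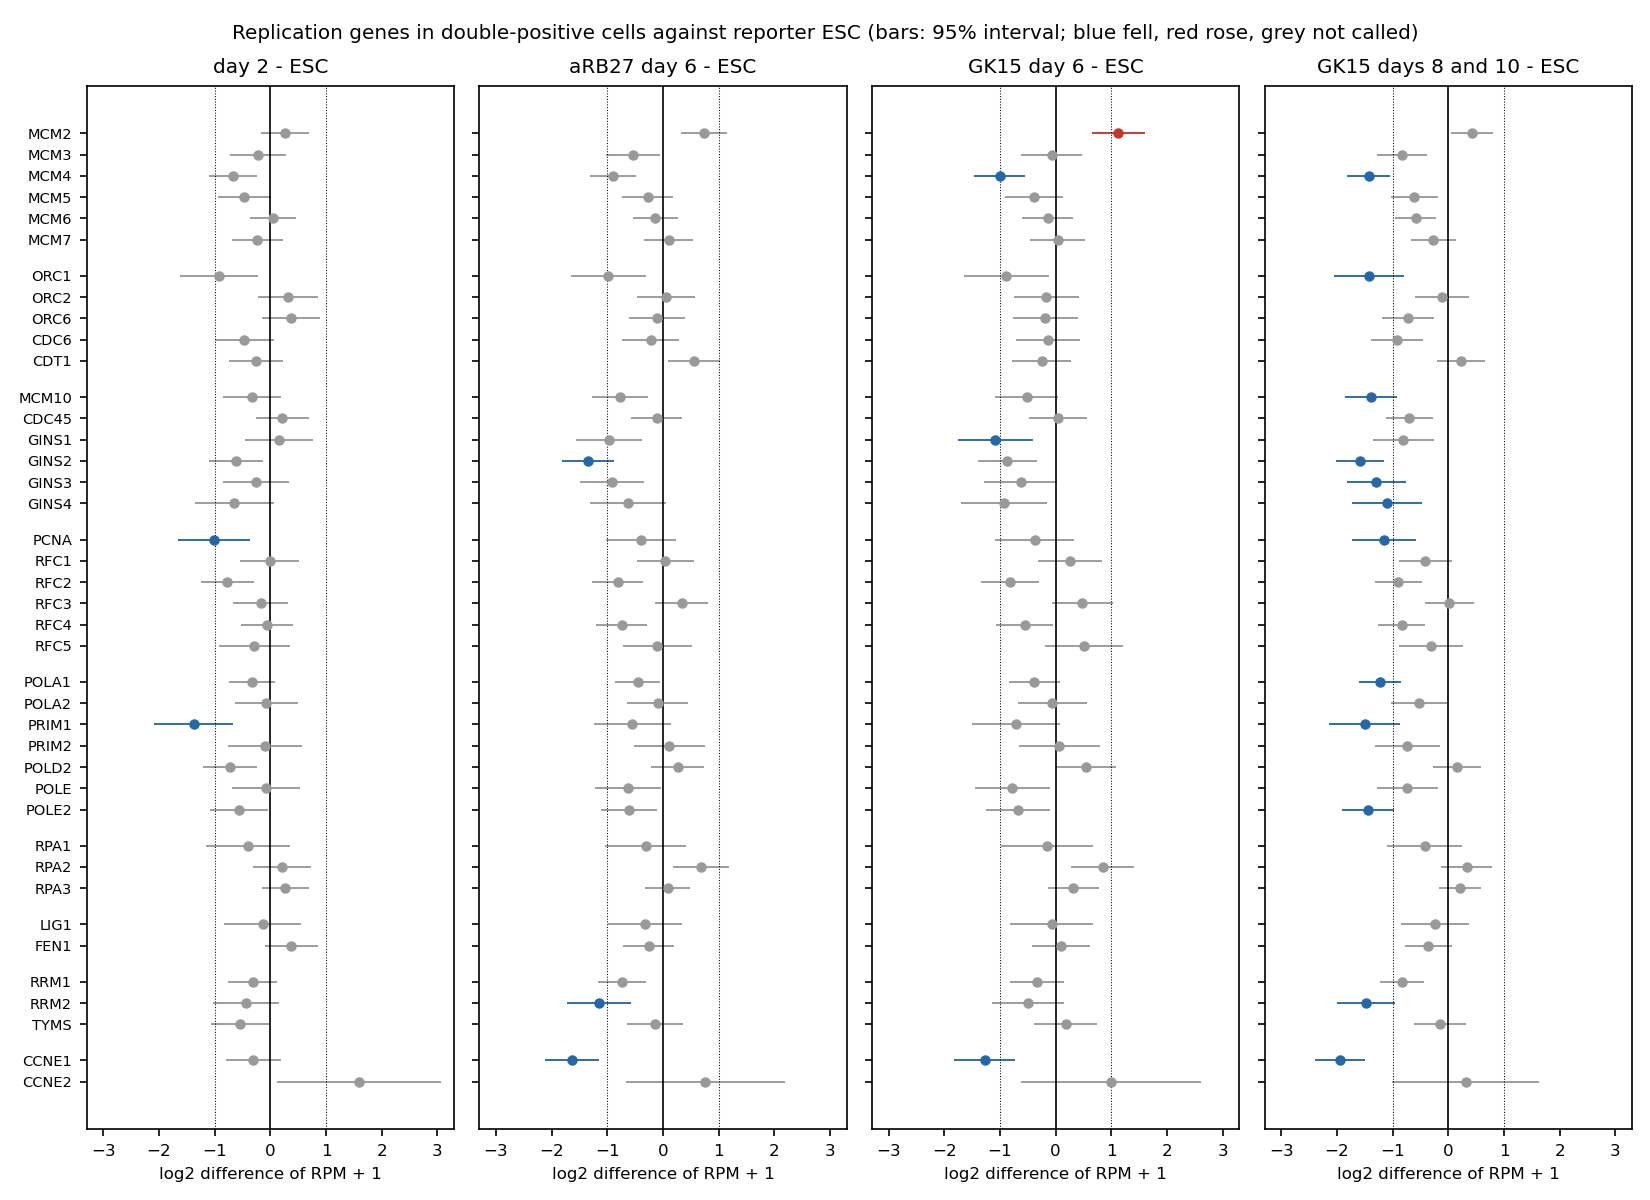
Log2 difference (RPM + 1, horizontal axes) of each of the 40 replication genes in double-positive cells against reporter ESC, in 4 panels for day 2, aRB27 day 6, GK15 day 6, and GK15 days 8 and 10, with the genes ordered by role. Bars are 95% intervals, dotted lines mark a difference of 1, blue genes fell and red genes rose; MCM2 is the only red point, at GK15 day 6, and 12 points are blue on days 8 and 10.

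The comparisons with ESC share the same 4 ESC libraries, so their values stand side by side here and are not independent of each other. On day 2, with both media averaged, 2 members (5%) fell and none rose, while 16% of all genes were called, 10.5% rising and 5.51% falling, so the members' share of falls was near that of all genes. By the adjusted p alone 5 members were lower and 0 higher, against 8.36% and 13.4% of all genes, MCM4, RFC2 and POLD2 being the added ones. PRIM1 stood at 8.29 to 15.8 RPM in the 3 libraries, below all ESC libraries, and fell by 1.38 ± 0.34 (SE, adjusted p = 0.00637). With a pseudocount of 10 its difference was −0.94 and the call was lost. PCNA, at 331 to 414 RPM, fell by 1.01 ± 0.31 (SE, adjusted p = 0.0237), with the highest day 2 library just under the lowest ESC library. The PCNA call was lost without ESC library 1 or 2, aRB27 library 1 or the GK15 library, with differences of −0.97, −0.74, −0.99 and −0.88, and with the title code as a covariate, at −0.65. Against ESC of the same code MS162 alone, PCNA was at −0.50 and PRIM1 at −1.20. CCNE1 was not called at this day, with 47.9 and 60.4 RPM in aRB27, 58.1 RPM in GK15 and a difference of −0.30 (adjusted p = 0.409). CCNE2, the other E cyclin, was at 11.7 to 14.6 RPM on day 2 and 0 to 12.9 RPM in ESC. Its difference of 1.60, the largest of the members, did not pass the adjusted p. Without ESC library 1 or 4, CCNE2 was called as rising. As labelled, none of the members was called on day 2, where 1.24% of all genes were.

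On day 6 in GK15, MCM2 rose, and MCM4, GINS1 and CCNE1 fell. These 4 members are 10% of the 40, while 24.8% of all genes were called, 14% rising and 10.8% falling. Without the size threshold, 5 members were lower and 2 higher by the adjusted p, against 14.3% and 17.1% of all genes. The members' median was −0.18 and that of all genes 0.01. CCNE1 was at 23.3 and 33.8 RPM, a difference of −1.27 ± 0.26 (SE, adjusted p = 0.000866), with no overlap with ESC. MCM4, at 104 and 116 RPM, was at −1.01 ± 0.22 (SE, adjusted p = 0.0016), on the edge of the threshold: without ESC library 1, 2 or 4 or day 6 library 1 it was at −0.92, −0.98, −0.99 and −0.93. GINS1, at 31.2 and 58.5 RPM against 54.4 to 120 RPM in ESC, was at −1.08 ± 0.32 (SE, adjusted p = 0.0141), and at −0.64 without day 6 library 1 and −0.96 without ESC library 4. RPA2, a subunit of the RPA complex, passed the adjusted p alone on the higher side at 0.84, with 92.9 and 113 RPM against 41.8 to 74.1 RPM. As labelled, no gene at all was called in this comparison, members included.

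On day 6 in aRB27, 3 members (7.5%) fell and none rose, while 25.9% of all genes were called, 12.8% rising and 13.1% falling. CCNE1 was at 24.1, 18.8 and 22.5 RPM, a difference of −1.63 ± 0.23 (SE, adjusted p = 1.47e-05). GINS2 was at 46.6, 59.8 and 47.0 RPM, a difference of −1.35 ± 0.23 (SE, adjusted p = 0.000102). RRM2 was at 211, 196 and 219 RPM, a difference of −1.15 ± 0.27 (SE, adjusted p = 0.00247). None of these values reached an ESC library. By the adjusted p alone 12 members were lower, against 20.2% of all genes, and 2 higher, against 17.1%, namely MCM2 and RPA2, at 0.73 and 0.68. The members' median was −0.29 and that of all genes −0.08. As labelled, 2 of the 3 calls were made, where 19% of all genes were called, and RRM2 was at −0.93.

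MCM2 (gene 102122886) is a subunit of the same hexameric ring as MCM3 to MCM7. Over all 24 libraries it was the only member that rose in any comparison of double-positive cells with ESC. It was at 273, 233, 193 and 248 RPM in the 4 ESC libraries. In GK15 it was at 276 RPM on day 2, 372 RPM on day 4, 524 and 505 RPM on day 6, 338 and 328 RPM on day 8 and 383 and 234 RPM on day 10. Both day 6 libraries lay above all others of the 24, and of those in GK15 only day 10 library 2 lay inside the ESC range. In aRB27 it was at 325 and 259 RPM on day 2, 381 and 257 RPM on day 4 and 405, 360 and 407 RPM on day 6, the last above every ESC library. At day 6 in GK15 the difference was 1.13 ± 0.22 (SE, adjusted p = 0.000674), 1.05 against the ESC of code MS134 and 1.20 against those of MS162. It was called whichever library was left out, but was not as labelled, at 0.77 with an adjusted p of 0.237.

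Set against its ring partners in the same library, a ratio that any scaling of the library leaves as it is, MCM2 separated the groups. RPM of 3′ reads do not give the stoichiometry of the proteins, so the ratio is read only between libraries. MCM2 over the mean of MCM3 to MCM7 was 1.22 to 1.42 in the 4 reporter ESC libraries and 1.57 to 4.12 in the 15 double-positive libraries, with no overlap. The lowest double-positive values were those of day 2, 1.57 to 2.10, and the day 6 libraries were at 2.47 to 3.09 in aRB27 and 3.29 and 3.69 in GK15. On day 10 the ratio was 4.12 and 2.61, with MCM2 lower than on day 6. In PRDM1-only cells it was 0.85 to 1.08, below all reporter ESC, and in TFAP2C-mid cells 1.403 and 1.542. Of the transgene-free ESC, CMK6 library 1 was at 0.49 and the other 4 libraries at 0.93 to 1.23. The ratio was chosen with the rise of MCM2 known and has no test.

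The same ratio in the 9 libraries that were left out can be set beside their PRDM1 level. It was 2.52 in the library labelled reporter ESC 5, 3.09 and 3.89 in those labelled GK15 TFAP2C-mid days 2 and 4, and 2.19, 2.88 and 3.13 in those labelled aRB27 double-positive days 8 and 10 and day 6 library 2. These 6 libraries held PRDM1 at 135 to 253 RPM. In the libraries labelled GK15 double-positive day 2 library 2, day 4 library 2 and day 6 library 2, with PRDM1 at 4.9, 0 and 0.5 RPM, it was 1.14, 1.21 and 1.49. These are values of single libraries and were not tested.

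**Figure D2:**
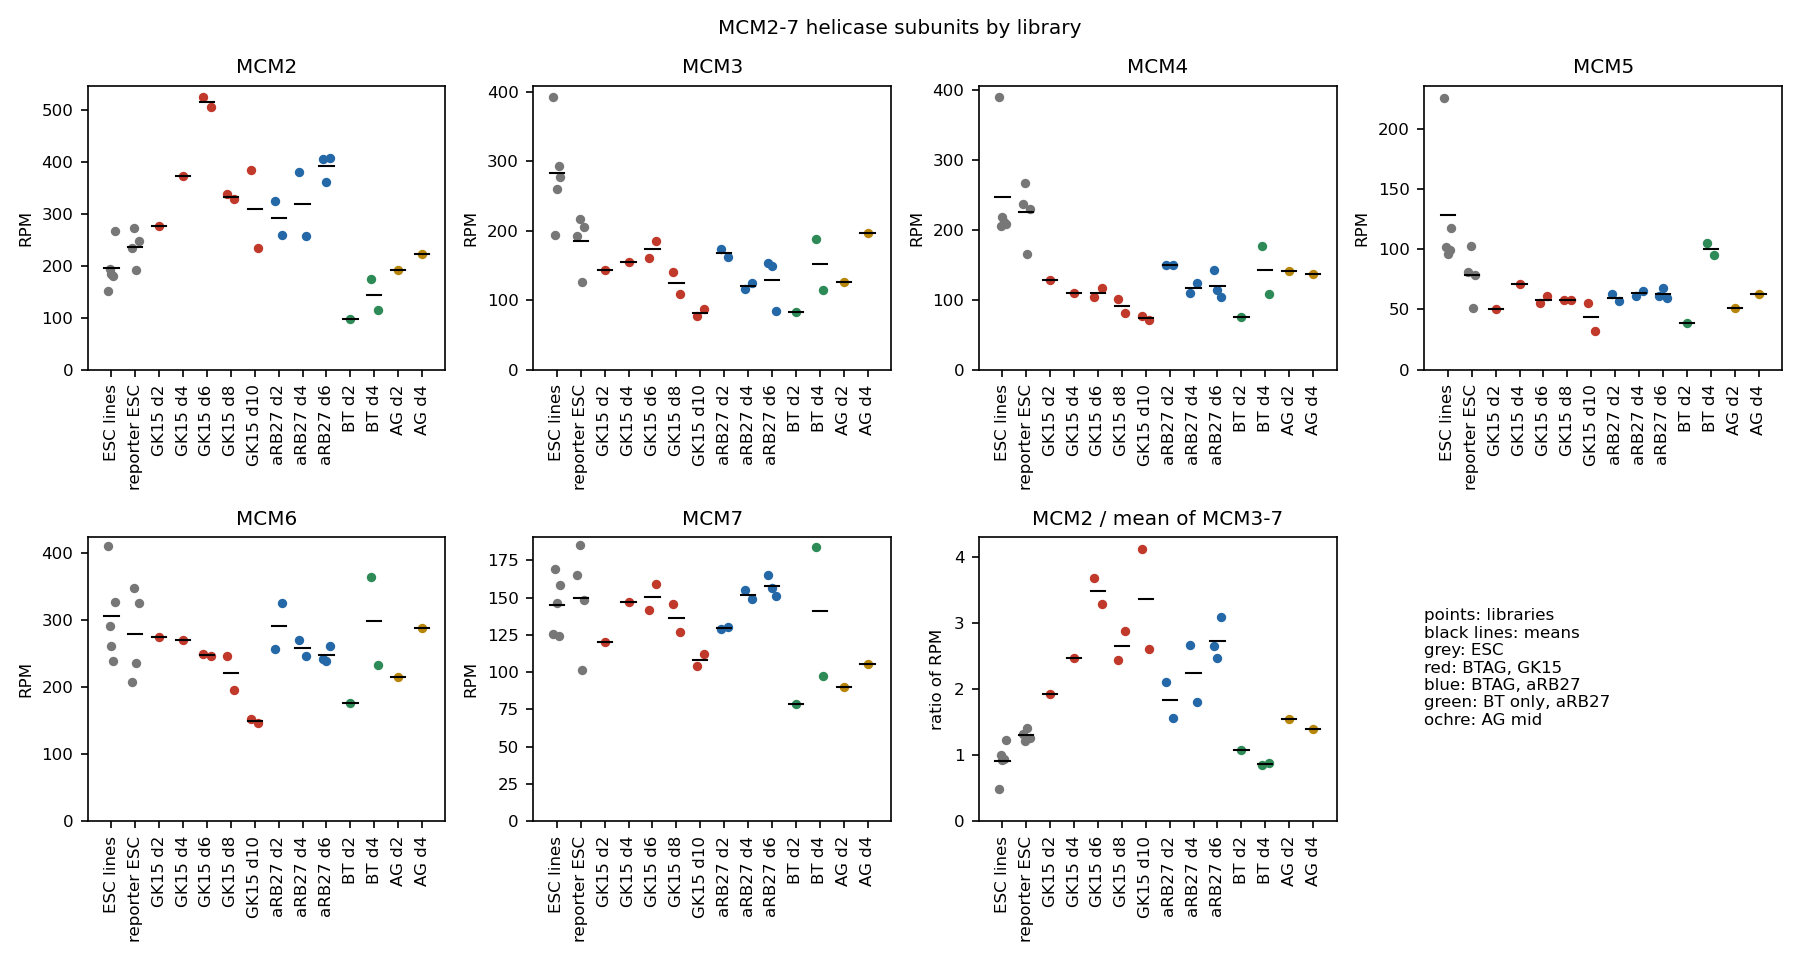
Levels in RPM (vertical axes) of MCM2 to MCM7 and the ratio of MCM2 to the mean of the other 5 in each kept library, by group along the horizontal axes (ESC lines are the transgene-free ESC, GK15 and aRB27 the double-positive cells, BT the PRDM1-only and AG the TFAP2C-mid cells); points are libraries and lines group means. MCM2 peaks at 505 and 524 RPM in GK15 day 6 while MCM4 steps down from ESC, and the ratio of every double-positive library, at 1.57 or more, lies above the ESC libraries.

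Within the double-positive cells, 11 of the 40 members fell with the day of induction from day 2 to day 10 and none rose, over 15 libraries with the medium as a covariate. A slope was called at an adjusted p under 0.05 and at least 1 log2 unit per 8 days. Over the 9826 genes tested, 19.4% were called, 7.14% rising and 12.2% falling, against 27.5% of the members. On the adjusted p alone, 18 members were lower and 1 higher, against 18.1% and 9.19% of all genes. CCNE1 fell most steeply, by 0.26 ± 0.03 log2 per day (SE, adjusted p = 2.76e-05), followed by CCNE2 and RRM2, at −0.21 and −0.20 per day. CCNE2, the second E cyclin, was at 14.6 RPM or less in all libraries, so its slope rests on few reads, and without the GK15 day 2 library its adjusted p was 0.0551. In the activation group 5 of 6 members fell, MCM10, CDC45, GINS1, GINS2 and GINS3, at −0.14 to −0.16 per day. ORC6, a subunit of the origin recognition complex, fell by 0.15 per day, from 90.7 to 134 RPM in the 3 day 2 libraries to 34.6 and 43.7 RPM on day 10. FEN1 fell by 0.14 and RFC4, of the clamp loader, by 0.13.

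Some members called against ESC were not called over days, and the other way round. MCM4, PCNA and PRIM1, already at no more than 151, 414 and 15.8 RPM in every day 2 library, had no called slope, and neither had any other helicase subunit. ORC6, CDC45, GINS1, RFC4, FEN1 and CCNE2 had a called slope while their late levels were not called against ESC. CDT1, which loads the helicase with CDC6, was the only member with an adjusted p under 0.05 on the rising side, at 0.10 per day (adjusted p = 0.0153), below the threshold of slope. Under other scalings CDT1, POLD2 (an accessory subunit of polymerase delta) or both were called as rising: 1 rose and 8 fell with TMM scaling, and 2 rose and 8 fell with quantile normalization and in edgeR. The falls of CDC45, FEN1 and RFC4 were not called in any of these fits, nor with a pseudocount of 10. Over all genes, TMM scaling called 877 rising and 922 falling, against 702 and 1202 without it. The slope calls depend on single libraries for CDC45 (−0.10 without GK15 day 10 library 2), GINS1 (adjusted p = 0.142 without the GK15 day 2 library), GINS3 (adjusted p = 0.0507 without that library and −0.12 without day 10 library 1) and RFC4 (−0.12 without aRB27 day 2 library 1, aRB27 day 6 library 3 or GK15 day 10 library 2). Days 8 and 10 were in GK15 alone, so the end of the course cannot be told apart from that medium. As labelled, 4 members fell and 0 rose. Of the 10289 genes tested in that fit 18.3% were called, 689 rising and 1193 falling.

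**Figure D3:**
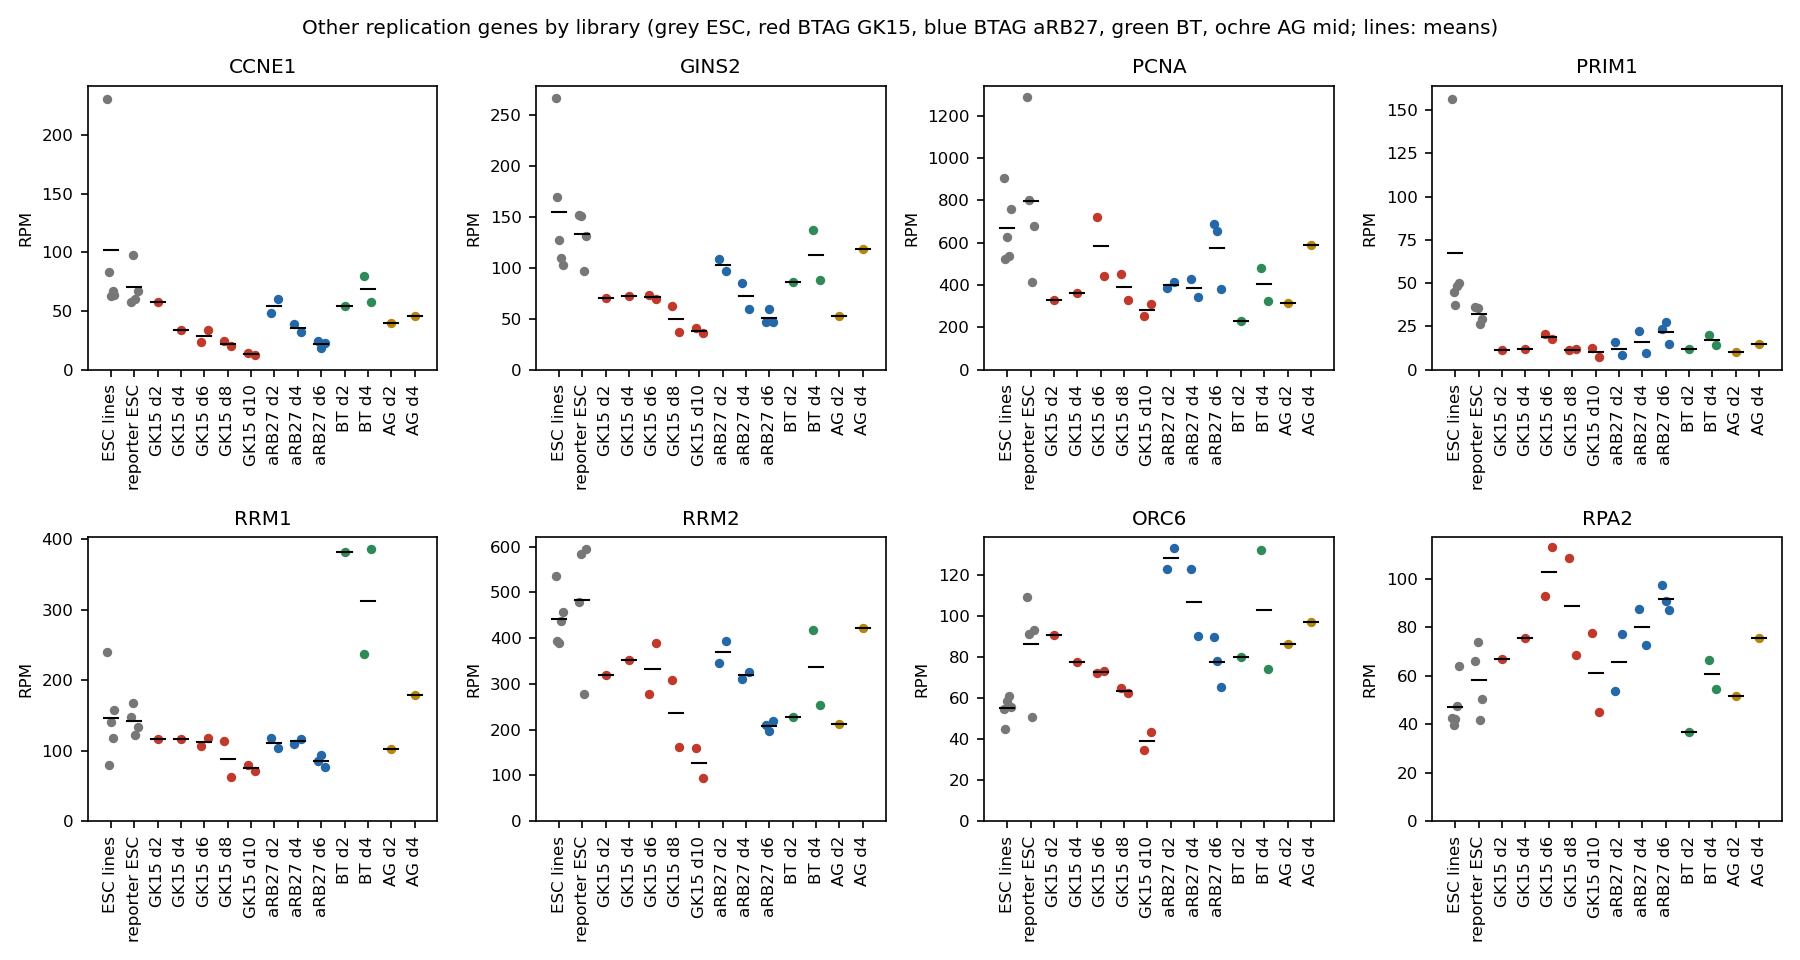
Levels in RPM (vertical axes) of 8 replication genes in each kept library, by group along the horizontal axes (names as in the plot of the helicase subunits); points are libraries and lines group means. CCNE1 steps down to 12.8 and 13.8 RPM on day 10 in GK15, and PRIM1 is already low on day 2. The group means of RRM1 are highest in the PRDM1-only cells (BT), at 237 to 386 RPM by library, a range that CMK6 library 1 of the transgene-free ESC reaches at 239 RPM.

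No member was called between the media. Over days 2, 4 and 6, aRB27 against GK15, 0 of the 40 members were called in limma and 0 in edgeR, and 0 were under 0.05 before adjustment, while 0.0841% of all genes were called in limma. The differences of the members went no further than 0.34 in either direction, and that of MCM2 was −0.19, with a 95% interval of −0.55 to 0.16. The interval of CCNE1 was −0.54 to 0.28 and that of RRM2 −0.68 to 0.29, so differences of this size remain possible. CDT1, named after its values were seen, was at 65.7 to 77.4 RPM on day 6 in aRB27 and 35.6 and 44.1 RPM in GK15, with no overlap on that day, and its day 6 difference of 0.81 did not pass (adjusted p = 0.335), in a comparison that called 0.159% of all genes.

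PRDM1-only cells differed from double-positive cells of the same day and medium, day 4 in aRB27, in 2 members, 1 higher and 1 lower, while 15.1% of all genes were called, 8.05% rising and 7.08% falling. RRM1 (gene 102131278), the large subunit of ribonucleotide reductase, was at 237 and 386 RPM against 109 and 117 RPM. The groups did not overlap, and RRM1 rose by 1.41 ± 0.27 (SE, adjusted p = 0.000858), a call that held in each of the 13 alternatives run, including the fit as labelled. The day 2 library of PRDM1-only cells was at 381 RPM, against 118 and 104 RPM in double-positive cells of that day and medium, and no ESC library of the reporter lines was above 168 RPM. RRM2, which forms the enzyme with RRM1, showed no such step, at 419 and 253 RPM against 312 and 326 RPM, a difference of 0.03. RRM1 over RRM2 was 0.57 to 1.67 in PRDM1-only cells, 0.27 to 0.76 in double-positive cells and 0.23 to 0.44 in reporter ESC.

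MCM2 went the other way in PRDM1-only cells, at 174 and 114 RPM against 381 and 257 RPM, and fell by 1.15 ± 0.26 (SE, adjusted p = 0.00388). That call was lost without double-positive library 1 (adjusted p = 0.0879), without PRDM1-only library 2 (adjusted p = 0.0846) and as labelled (adjusted p = 0.187), when 1 member was called. Of all genes, 3.68% were called as labelled. Over the 24 libraries MCM3 to MCM7 were not called, at −0.18 (MCM7) to 0.65 (MCM5). By the adjusted p alone 2 members were higher and 2 lower, against 8.76% and 7.73% of all genes, CCNE1 at 0.91 and RPA3 at −0.82 being the added ones, and GINS3, at 1.05, did not (adjusted p = 0.0541). The 7 endoderm markers summed to 813 and 1274 RPM in PRDM1-only cells of day 4 and 73.7 and 84.7 RPM in double-positive cells of that day. On day 2 in aRB27 the sums were 2018 RPM and 67.8 and 135.6 RPM. Most of the day 4 sums came from GATA4 (207 and 553 RPM), GATA6 (480 and 325 RPM) and FOXA2 (114 and 170 RPM). FOXA1 was not higher on day 4, at 2.49 and 5.79 RPM against 6.33 and 6.23 RPM. TTR and AFP were at 0 in PRDM1-only day 4 library 1. The part of these markers in the RRM1 and MCM2 differences was not tested.

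In TFAP2C-mid cells, 1 library on day 2 in aRB27 and 1 on day 4 in GK15, PRIM1 was the 1 member of 40 that fell against ESC and 0 rose, while 11% of all genes were called, 7.23% rising and 3.81% falling. It was at 9.9 and 14.9 RPM, a difference of −1.31 ± 0.37 (SE, adjusted p = 0.0239), and the call was lost without ESC library 1 or 2 or the day 2 library (adjusted p = 0.0556, 0.0504 and 0.24). By the adjusted p alone 2 members were lower and 0 higher, against 5.35% and 8.26% of all genes, the added one being CDC6, at −0.87. The libraries differed from each other: summed, the members were at 3251 RPM in the day 2 library and 4625 RPM in that of day 4, and GINS2 was at 52.8 and 119 RPM. The 7 amnion and mesoderm markers summed to 3641 RPM in each of them, against 141 to 347 RPM in ESC. HAND1, at 0 in ESC, gave 2459 and 2541 RPM of these sums. Most of the ESC sums was COL1A1, at 133 to 346 RPM, which was not higher in TFAP2C-mid cells, at 24.3 and 156 RPM. COL3A1 was at 0 in the day 2 library. The part of these markers in the values of the members was not tested. As labelled, none of the members was called, and 0.165% of all genes.

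In ESC without a transgene the members summed to 6152 RPM in CMK6 library 1 and 4398 to 5204 RPM in the other 4. ORC6 was at 45.1 to 61.0 RPM in the 5 libraries, below all reporter ESC libraries but library 3 (51.0 RPM). PRIM1 was at 37.4 to 157 RPM, above all reporter ESC libraries, which reached 36.3 RPM. These 2 genes were chosen after their values were seen. MCM2 was at 152 to 267 RPM and CCNE1 at 63.2 to 231 RPM. These libraries carry other title codes than those of the reporter lines, so line and code cannot be told apart, and the groups were not tested against each other. The upper ends of PRIM1 and CCNE1 are those of CMK6 library 1, and the other 4 libraries reached 49.8 and 83.4 RPM.

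In mouse, normalized in a table of its own, no replication gene was called between days 4 and 6. Of the 41, 40 passed the filter, and Ccne2, at 0.42 to 2.65 RPM, did not. limma called 0 of the 40 and edgeR 0, while limma called 2.59% of the 8255 genes tested, and 3 members had an unadjusted p under 0.05. These were Mcm5, at 488 and 428 RPM on day 4 and 336 and 389 RPM on day 6 (log2 difference −0.33, adjusted p = 0.162), Pold1, at 49.5 and 70.7 RPM and then 43.2 and 37.9 RPM (−0.54, adjusted p = 0.19), and Gins1, at 103 and 116 RPM and then 93.2 and 78.7 RPM (−0.35, adjusted p = 0.239). The members' median was −0.07 and that of all genes −0.05. Ccne1 was at 85.7 and 90.2 RPM on day 4 and 124 and 97.7 RPM on day 6, a difference of 0.32 that did not pass (adjusted p = 0.293). Mcm2 over the mean of Mcm3 to Mcm7 was 0.88 to 0.99 in the 4 mouse libraries. With no mouse ESC library, the start of the mouse course was not analysed here.

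**Figure D4:**
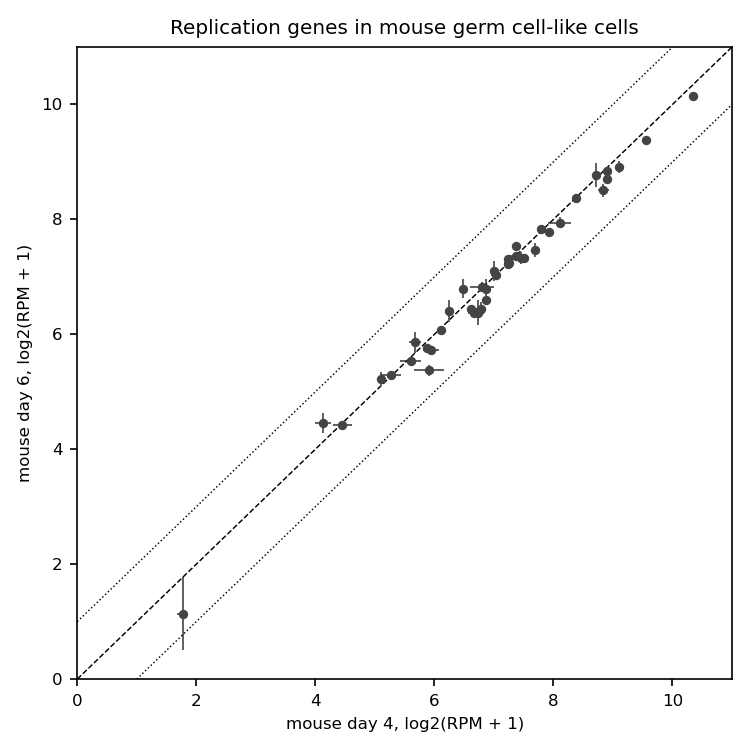
Mean log2(RPM + 1) of the 41 replication genes in mouse germ cell-like cells on day 4 (horizontal axis) and day 6 (vertical axis), with bars from the lower to the higher of the 2 libraries. The dashed line marks equality and the dotted lines a log2 difference of 1; every member that passed the filter lies between the dotted lines, and the lowest point is Ccne2.

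Other S-phase genes, a list of 50 that takes in regulators, nucleotide enzymes and chromatin assembly factors, was tested in the same comparisons. On days 8 and 10 in GK15, 17 of the 50 fell and 1 rose, with a median of −0.70, where 15.7% of all genes fell and 15.4% rose. DUT, which keeps uracil out of DNA, fell by 2.73, from 612 RPM (mean of 4 ESC libraries) to 94.9 RPM, and TK1, the thymidine kinase, by 2.15, from 147 to 32.9 RPM. CDKN1C, an inhibitor of the cyclin-dependent kinases, fell by 3.65, and DNA2, a nuclease and helicase, and DCK, the deoxycytidine kinase, by 1.97 and 1.86. Late levels were 0 to 14.3 RPM for CDKN1C and 0.75 to 7.46 RPM for DNA2. The sizes of the CDKN1C and DNA2 falls rest in part on few reads. On day 6 in GK15, 3 fell and 1 rose, where 10.8% of all genes fell and 14% rose. On day 6 in aRB27, 7 fell and 2 rose, where 13.1% of all genes fell and 12.8% rose. Over the days of the double-positive cells 15 fell, where 12.2% of all genes did, and 1 rose, the kinase inhibitor CDKN1A, at 0.62 log2 per day. On day 2, CDKN1A had fallen by 3.42 against ESC, from a mean of 32.5 RPM to 3.97 RPM, with CDKN1C (−2.08) and DUT (−1.38). These 3 of the 50 (6%) were near the 5.51% of all genes that fell on that day. CDKN1A was at 10.5 and 0 RPM in aRB27 and 1.39 RPM in GK15 on that day. The sizes of its fall and of its slope thus rest in part on few reads. CDKN1C (2.40), DCK (1.15) and DUT (1.05) rose in PRDM1-only cells against double-positive cells. They were 3 of the 50 (6%), where 8.05% of all genes rose.

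Of 24 genes of mitosis, 22 fell on days 8 and 10 in GK15, where 15.7% of all genes fell, and all 24 fell over the days of the double-positive cells, where 12.2% did. The largest late differences were those of BUB1 (−2.57), PLK1 (−2.47), KIF20A (−2.31) and CDC20 (−2.26), which encode a checkpoint kinase, a mitotic kinase, a kinesin and an activator of the anaphase-promoting complex. The median late difference of the mitosis genes was −1.67, against −0.73 for the replication genes. On day 6, 12 of the 24 (50%) fell in aRB27, where 13.1% of all genes did. In GK15 on day 6, 4 (16.7%) fell, where 10.8% of all genes did. By the adjusted p alone 11 of the 24 were lower there and 0 higher, against 14.3% and 17.1% of all genes. Their median in that comparison was −0.74, and that of all genes 0.01. On day 2 BUB1 alone (4.17%) fell, near the 5.51% of all genes. The difference between the replication and mitosis lists was not tested.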

How the data were processed

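3′ RNA-seq libraries of monkey (38) and mouse (4) were read from 1 table per species. The values are RPM as deposited by the authors, reads per gene scaled to the library, per the file names. Tools named in the submitters' processing notes, whose roles the notes do not state, are Cufflinks 2.2.0, TopHat 1.4.1 and cutadapt 1.3; for mouse the build there is GRCm38. Not given in the sources used here are the monkey build and how reads of near-identical copies or of antisense genes were counted.

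The 41 members, the role groups and the other lists were chosen with earlier results of these data known. The low values of a library are whole multiples of a single read's worth: 99.4% to 99.8% of values no higher than 100 such units fell within 0.1 of a whole number, and reads recovered this way gave the depth (2.26 to 2.48 M reads in mouse).

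Tests used limma 3.58.1 in R 4.3.3 with an intensity trend on log2(RPM + 1), over genes that reached 10 RPM in 2 or more libraries, all reporter-line groups fitted together, so that a lone library borrows its spread from the other groups. The slope used the 15 double-positive libraries. Mouse spike-in entries (96) were not used. Of the members, those called are named in each comparison. The plan added at most the 2 largest in a role with no call. Members that passed the adjusted p alone are named as well, and some others beside called genes or after their values were seen. Of the other S-phase and mitosis lists, at most 6 and 4 called genes are named. Tested on simulated data of the size of the GK15 day 6 comparison (9854 genes, 200 changed), limma recovered 84% of changes of log2 1.5 and 100% of 2.5, with 7 false calls, and edgeR 4.0.16 recovered 87% and 100%, with 10 false calls. The simulation gave every gene the same spread beyond counting, and no difference between groups but the 200. Its rates need not hold for the real libraries. On the real reads of the GK15 day 6 comparison edgeR called 1445 rising and 1227 falling genes.

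Alternatives were pseudocounts of 0.1 and 10, no filter, TMM scaling, quantile normalization, the adjusted p alone, edgeR (quasi-likelihood) on the recovered reads, all 33 libraries as labelled, adding the title code to the model, and leaving out single libraries.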

Additional observations from a re-analysis of the deposited data

Results flagged for a closer look

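1 library of transgene-free ESC, CMK6 library 1, stood apart from the other 4 in 8 members, by a check of the gap between the highest or lowest library and its neighbour against the range of the group. It was the highest for MCM4 at 390 RPM (the others 206 to 219), MCM5 at 226 RPM (95.7 to 118), ORC1 at 111 RPM (48.7 to 63.5), RFC2 at 127 RPM (46.7 to 58.1), PRIM1 at 157 RPM (37.4 to 49.8), RPA1 at 109 RPM (9.74 to 33.1) and CCNE1 at 231 RPM (63.2 to 83.4), and the lowest for RPA3 at 75.5 RPM (375 to 460). The check was made for 41 items in each of the 2 ESC groups, and chance marks about 1 in 20 groups; in reporter ESC it marked none. The library was the shallowest of the 5, at 1.10 M reads and 12655 genes detected, and its part in these values was not tested. No test in the report uses it, but it enters the ranges given for transgene-free ESC.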

How the results depend on the processing

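Of the 35 calls of members over all comparisons, 15 held under every alternative run and 0 reversed. On day 6 in GK15, 4 calls became 2 with a pseudocount of 10, 7 by the adjusted p alone and 0 as labelled. The share of all genes called went there from 24.8% to 15.8%, 31.4% and 0%. In aRB27, 3 became 14 by the adjusted p alone, and the share of all genes went from 25.9% to 37.4%. On day 2, 2 became 0 with a pseudocount of 10, 1 without the filter, 5 by the adjusted p alone, 0 as labelled and 1 with the title code. Over all genes the 16% called became 9.46%, 8.27%, 21.8%, 1.24% and 15%, in the same order. On days 8 and 10, 12 became 24 by the adjusted p alone, and the share of all genes went from 31.1% to 48.7%. For the slope, 11 became 6 with a pseudocount of 10, 19 by the adjusted p alone and 4 as labelled. Over all genes the 19.4% called became 13.6%, 27.3% and 18.3%. The members' split of 0 rising and 11 falling slopes became 1 and 8 with TMM scaling, 2 and 8 with quantile normalization and 2 and 8 in edgeR. For PRDM1-only cells, 2 became 4 by the adjusted p alone and 1 as labelled, where the 15.1% of all genes became 16.5% and 3.68%. For TFAP2C-mid cells, 1 became 0 with a pseudocount of 10, 2 by the adjusted p alone, 2 in edgeR and 0 as labelled. The 11% of all genes called there became 7.85%, 13.6%, 12.2% and 0.165%. The causes were not tested, beyond that the adjusted p alone drops the size threshold.

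Leaving out 1 library at a time gave 2 to 7 calls on day 6 in GK15 (7 without ESC library 3, 2 without ESC library 4 or day 6 library 1), 3 to 6 in aRB27 (6 without ESC library 3, 5 without day 6 library 1), 1 to 3 on day 2 (1 without ESC library 2 or aRB27 library 1), 11 to 15 on days 8 and 10, 10 to 12 for the slope, 0 to 0 for the medium, 1 to 2 for PRDM1-only cells (1 without double-positive library 1 or PRDM1-only library 2), 0 to 5 for TFAP2C-mid cells (5 without ESC library 3, 4 without the day 4 library, 0 without the day 2 library or ESC library 1 or 2) and 0 to 0 in mouse. Where this leaves a group 1 library, that library is assumed to vary like the other groups. Without ESC library 3, 24.4% of all genes were called on day 6 in GK15 and 25.4% in aRB27. With all 24 libraries the shares were 24.8% and 25.9%. No paired analysis was possible because the labels give no replicate numbers; the fit with the title code blocks on that code, not on pairs of libraries. On days 8 and 10 it also called 12, but without PCNA (−0.79) and with a member not called otherwise. Depth limits the members near 10 RPM, such as CCNE2, RPA1, and PRIM1 in double-positive cells of days 2, 8 and 10. Quantile normalization moved the median of all genes from 0.05 to −0.06 on day 2 and from 0.08 to −0.05 in TFAP2C-mid cells; for the slope it called 943 genes rising and 871 falling, against 702 and 1202. In edgeR, PRDM1-only cells gave 2 members rising and 1 falling.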
